A study of Mus musculus with 6 samples.

Results

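Globins and red cell genes were followed here as 9 mouse genes: the embryonic beta-type globins Hbb-bh1 and Hbb-y, the embryonic alpha-type Hba-x, the adult alpha globin Hba-a1, the haem enzyme gene Alas2, the anion exchanger Slc4a1, the receptor Epor and the transcription factors Klf1 and Gata1. They were chosen by name, with earlier results of these data known. Of the 55418 probes of the array 10 carry an accession of these genes, 2 of them for Hbb-y and 1 for each other gene. RNA came from embryoid bodies, floating aggregates of differentiating mouse embryonic stem cells, on day 10 of culture without the self-renewal factor LIF. After 2 days in hanging drops the aggregates were kept for 8 days in nonadherent plates. The groups were line TKO_26 and line TKO_29, independent lines in which Tet1, Tet2 and Tet3 are all knocked out, and 1 wild-type (WT) line. All were on a mixed 129/C57BL6 background and had 2 arrays each. The series calls the arrays of a line technical replicas, so p-values below rest on array-to-array variation and not on separate cultures.

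Red blood cells of the early embryo form in the yolk sac and fill with embryonic haemoglobin, built from zeta (Hba-x) and epsilon or beta-H1 (Hbb-y, Hbb-bh1) chains around haem, whereas later red cells use adult chains. GATA1 and KLF1 are the transcription factors that switch on globin, haem and membrane genes in erythroid cells, and the erythropoietin receptor carries the survival signal of their precursors. Embryoid bodies in culture form such primitive red cells, and the TET enzymes oxidise 5-methylcytosine in DNA.

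Levels are log2 processed signals less the 75th percentile of their array, so a level of 0 equals that percentile. Between 38.4% and 55.8% of spots were well above background on an array, with TKO_26 replicate 1 the lowest and also the noisiest (coefficient of variation of repeated probes 9.63%, against 4.23% to 5.23% on the other arrays). All arrays lay on 1 slide, the TKO arrays in one column and the WT arrays in the other, so that position and genotype cannot be told apart. Of the targeted genes, the brightest probes of Tet1 and Tet2 fell in both TKO lines, by 1.02 and 1.69 for Tet1 and by 1.09 and 1.90 for Tet2 in TKO_26 and TKO_29 on the log2 scale, and the brightest Tet3 probe did not (1.05 and -0.62). Another Tet3 probe was detected in WT alone (0 of 4 TKO arrays) and was called lower in TKO_29 but not in TKO_26. A further Tet3 probe was called lower in both lines, by 1.26 and 1.60. It was above background on both TKO_29 arrays, 1 WT array and 0 TKO_26 arrays. A second Tet1 probe differed by -0.08 and 0.23. The position of these probes relative to the deletions was not given in the sources used here. Of marker genes for an embryoid body, 5 of 5 cardiac and 7 of 7 yolk sac endoderm genes fell in both TKO lines, as did 5.93% of all tested probes. WT showed all 12 well above background. A gene "fell" or "rose" where limma gave a Benjamini-Hochberg adjusted p under 0.05 over 28267 tested probes and at least a 2-fold difference from WT, with the same sign for TKO_26 and TKO_29.

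By this rule 8 of the 9 genes fell and none (0) rose, where 5.93% of all tested probes were called lower and 4.09% higher. The genes and the lists below were chosen with earlier results of these data known. Shares over all probes therefore give a scale and are no test of the genes as a set. All 9 passed in TKO_26, where 12.7% of tested probes were called in either direction and 7.11% lower. In TKO_29 8 passed, the exception being Epor, beside 20.2% called in either direction and 10.8% lower. Both comparisons share the WT arrays. The sizes differed widely: in the scaling used here the 4 globins fell at least 109-fold over both lines and Alas2 at least 7.72-fold, while the fitted means of Slc4a1, Klf1, Gata1 and Epor lay 1.81-fold to 3.38-fold lower. A dim WT level limits the decrease that can be measured, and WT means were -6.38 for Slc4a1, -6.05 for Klf1 and -5.19 for Alas2. The median log2 difference over the 9 genes was -4.94 (-2.95 with dim arrays at their bounds), beside 0.00 over all tested probes (-0.0011). All 10 probes passed the filter on dim signal, but those of Hbb-bh1, Hbb-y, Hba-x and Alas2 passed it through the WT arrays alone and therefore had to differ. These bounds hold for that background treatment alone: with the authors' matrix values and with normexp, Hba-a1 differed by -6.00 and -5.74, Hba-x by -7.03 and -6.53, and Alas2 by -2.17 and -1.85 on the log2 scale. In bulk RNA, fewer red cells and less RNA per red cell cannot be told apart.

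**Figure D1:**
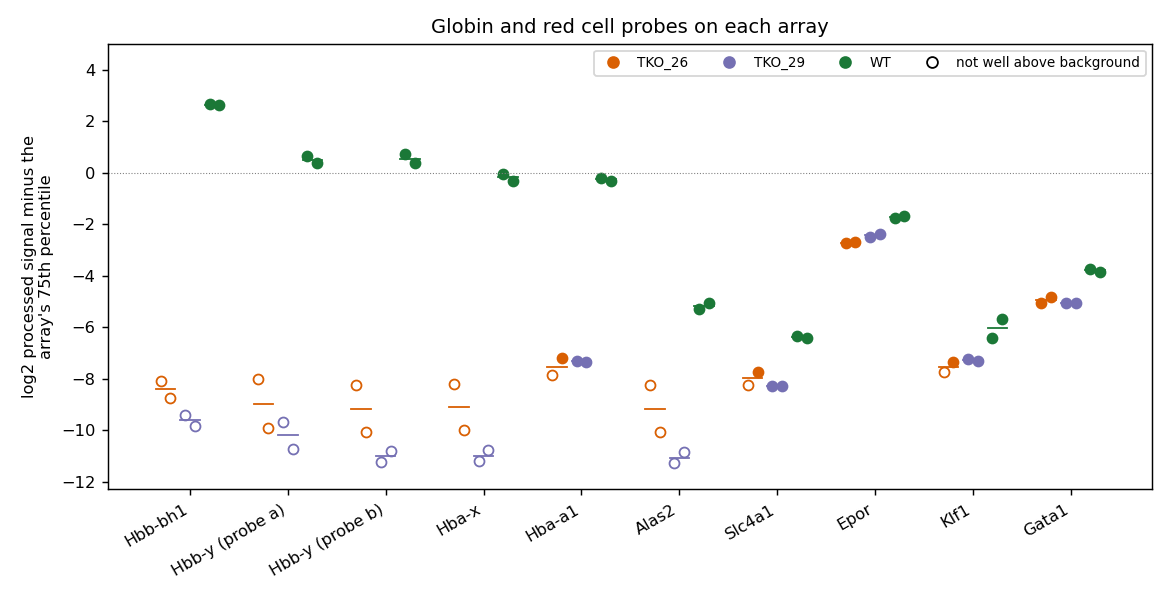
Level of each probe (log2 processed signal minus the array's 75th percentile) on the 2 arrays of TKO_26, TKO_29 and WT, with a short line at each group mean. Filled points are well above background and open points are not. Globin probes lie between -0.32 and 2.67 on WT arrays and below -7.2 on every TKO array, while Epor and Gata1 are measured on all arrays and lie about 1 unit lower in TKO.

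The embryonic beta-type globins were measured in WT alone. Hbb-bh1, which encodes the beta-H1 chain of primitive red cells, had levels of -8.09 and -8.75 on the TKO_26 arrays and -9.42 and -9.82 on the TKO_29 arrays, against 2.67 and 2.62 on the WT arrays. No TKO array showed it well above background, and the groups lay far apart. Where a signal is not well above background only a bound is given: the WT mean against the lowest signal well above background on each such array, or the probe's own signal where higher. Hbb-bh1 was at least 943-fold lower in TKO_26 and at least 3269-fold lower in TKO_29 (limma adjusted p = 3.75e-04 and 3.51e-04). With the authors' matrix values its mean log2 difference over both lines was -9.03 and with normexp -8.67, smaller than these bounds.

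Hbb-y, the epsilon-y chain gene next to it, was read by a pair of probes, a and b. On probe a the levels were -8.02 and -9.92 in TKO_26 and -9.67 and -10.74 in TKO_29, against 0.65 and 0.36 in WT. On probe b they were -8.26 and -10.09 in TKO_26 and -11.25 and -10.80 in TKO_29, against 0.73 and 0.38 in WT. Both probes separated all TKO arrays, none of them well above background, from the WT arrays, with bounds over both lines of at least 398-fold and 411-fold. In single lines probe a was at least 214-fold lower in TKO_26 and at least 742-fold lower in TKO_29 (limma adjusted p = 0.00227 and 0.00162).

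The alpha-type globins followed. Hba-x, the zeta chain gene of primitive red cells, stood at -8.19 and -10.01 in TKO_26 and at -11.22 and -10.78 in TKO_29, against -0.04 and -0.32 in WT. It was dim on every TKO array, at least 134-fold lower in TKO_26 and at least 463-fold lower in TKO_29 (limma adjusted p = 0.00193 and 0.00122). Hba-a1, an adult alpha chain gene, had levels of -7.88 and -7.21 in TKO_26 and -7.31 and -7.34 in TKO_29, against -0.20 and -0.32 in WT. Unlike the embryonic globins it was still well above background on 3 of the 4 TKO arrays, all but TKO_26 replicate 1. It fell 134-fold in TKO_29, a measured value (log2 difference -7.06 ± 0.25, SE; limma adjusted p = 6.64e-04), and at least 88.3-fold in TKO_26 (adjusted p = 6.24e-04).

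Of the other haemoglobin genes, 5 of 8 could be tested, and 3 of these fell and none (0) rose, beside 5.93% of all tested probes called lower. Hba-a2, a nearly identical copy of Hba-a1, was measured on all 6 arrays, at -5.15 and -5.45 in TKO_26 and -5.99 and -5.79 in TKO_29, against 1.73 and 1.34 in WT. It fell 114-fold in TKO_26 and 172-fold in TKO_29 (limma adjusted p = 5.48e-04 and 4.39e-04). The probes of Hba-a1 and Hba-a2 may each read both genes, so they are not independent values. The adult beta chain genes Hbb-bt and Hbb-b2 were detected in WT and dim on every TKO array, at least 12.7-fold and 3.22-fold lower over both lines. Their probes passed the filter through the WT arrays alone and therefore had to differ. Both calls rest on every WT and TKO_29 array: without 1 of these the limma adjusted p in TKO_26 was 0.0563 to 0.0907 for Hbb-bt and 0.1 to 0.168 for Hbb-b2, and with the replicate number as a block 0.0709 for Hbb-b2. They belong to alternative haplotypes of the adult beta locus that differ between mouse strains, and near-identical adult beta genes cannot be told apart here. Hbb-bs and Hbb-bh2 were not well above background on any array. The theta-like genes Hbq1a and Hbq1b were above background on both arrays of TKO_29 only, near the detection limit, and were not called. Of the globins used outside red cells, Cygb, cytoglobin of fibroblast-like cells, fell 25.9-fold, the muscle myoglobin gene Mb differed by 0.62 and 0.79, and Ngb of neurons was not tested.

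The neighbours of the globin genes along the genome were compared next. In the order of the RefSeq annotation, Snrnp25, Rhbdf1, Mpg and Nprl3 precede Hba-x on chromosome 11, and Sh3pxd2b, Ubtd2, Stk10 and Fbxw11 follow Hbq1a. These 8 neighbours were measured on all arrays and none (0) was called. Of all tested probes 5.93% were called lower and 4.09% higher, so 0 of 8 is not a result about them. Only Stk10 had a limma adjusted p under 0.05 in both lines (0.013 and 0.00837). It differed by -0.87 in TKO_26 and -0.91 in TKO_29 and missed the 2-fold limit. Nprl3, a regulator of amino acid signalling whose introns hold the enhancers of the alpha globin genes, differed from WT by 0.28 in TKO_26 and 0.26 in TKO_29 on the log2 scale. Next to it Hba-x lay at -8.93 and -10.82. The beta cluster on chromosome 7 lies among olfactory receptor genes, of which few have a tested probe. Between it and its nearest tested neighbours lie 4 (Olfr629) to 68 (Trim21) genes without a tested probe, so most are not adjacent genes. Of the 8 nearest tested neighbours only Olfr629 was called lower, beside 5.93% of all tested probes. It lay at -1.09 in TKO_26 and -1.80 in TKO_29 and was above background on 3 of the 4 TKO arrays.

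**Figure D2:**
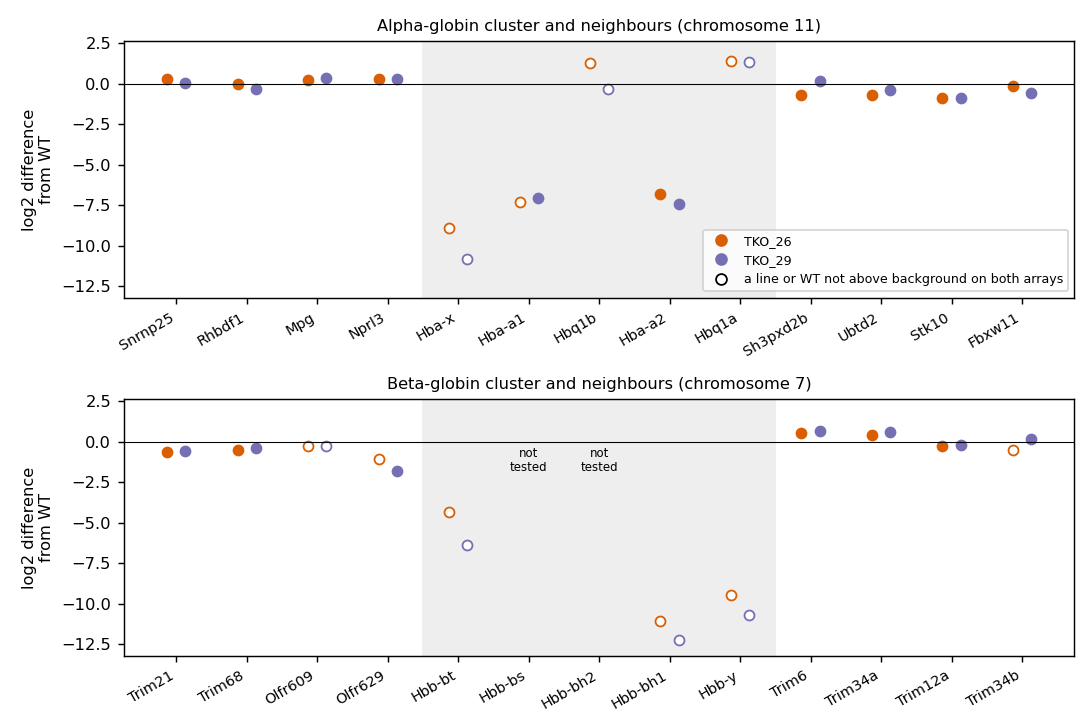
Log2 difference of TKO_26 and TKO_29 from WT for the genes of the alpha-globin cluster (top) and beta-globin cluster (bottom), shaded, and the 4 nearest genes with a tested probe on each side, in genome order. Between the beta cluster and its plotted neighbours lie 4 to 68 genes without a tested probe. Open points mark a line or WT not well above background on both arrays. Hba-x, Hba-a1 and Hba-a2 lie near -7 or below, while the 8 neighbours of the alpha cluster lie within 1 unit of 0.

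Alas2 encodes the erythroid form of 5-aminolevulinate synthase, which starts haem synthesis in red cells. Its levels were -8.25 and -10.08 in TKO_26 and -11.30 and -10.85 in TKO_29, against -5.30 and -5.07 in WT. Both WT arrays were well above background and no TKO array was. Alas2 was at least 4.15-fold lower in TKO_26 and at least 14.4-fold lower in TKO_29 (limma adjusted p = 0.0151 and 0.00422). The call was lost without WT replicate 1 and without WT replicate 2 (adjusted p = 0.0706 and 0.0637 in TKO_26 by limma). It was also lost with dim signals raised to the floor of their array (0.129) and without a filter on dim probes (0.0932).

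Of the other 8 genes of haem synthesis, which all cells use, none (0) passed in both lines by limma, with a median log2 difference of -0.22. At an unadjusted limma p under 0.05 in both lines, with no limit on the fold, 4 were lower and 0 higher. Alas1, the form of the first enzyme found in all tissues, stood at -0.58 in TKO_26 and -0.71 in TKO_29 on the log2 scale. Ppox, protoporphyrinogen oxidase, differed most, by -1.02 and -0.98, and was called in both lines without WT replicate 2 (-1.26). Fech, ferrochelatase, which inserts the iron, differed by -0.72 and -0.85. Of 12 genes of iron uptake and haem transport, none (0) passed in both lines by limma (median -0.19, and -0.14 without 2 saturated genes), nor did any (0) at an unadjusted p under 0.05 in both. Tfrc, the transferrin receptor, lay at -0.27 and 0.03. The ferritin genes Fth1 and Ftl1 were saturated on all 6 arrays, so no difference is given for them. At 5.93% called lower over all probes, 0 of these 20 genes is not a result about them.

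Slc4a1 encodes band 3, the anion exchanger of the red cell membrane. Its levels were -8.27 and -7.73 in TKO_26 and -8.30 and -8.27 in TKO_29, against -6.34 and -6.43 in WT. All TKO arrays lay below the WT arrays, and 3 of 4 were above background. It fell 3.74-fold in TKO_29 (log2 difference -1.90, 95% confidence interval -2.44 to -1.36; limma adjusted p = 0.00469). In TKO_26 the difference was -1.61 (adjusted p = 0.00955), but with TKO_26 replicate 1 at its floor the bound was only 1.52-fold. The call was lost without WT replicate 1 (adjusted p = 0.055 in TKO_26 by limma), with the authors' matrix values (-0.74) and with normexp (-0.61). It was also lost with quantile normalisation alone (limma adjusted p = 0.094 in TKO_26 and 0.183 in TKO_29) and without a filter on dim probes (0.0883 in TKO_26). With dim signals at their floor the values were 0.512 and 0.0514, again without a call.

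Other red cell membrane genes gave a mixed picture. Of 16 genes 10 were tested, 4 fell and 1 rose (median -0.77), where 5.93% of all tested probes were called lower and 4.09% higher. Gypc, glycophorin C, was measured on all arrays and fell 5.21-fold in TKO_26 and 5.92-fold in TKO_29. Tmod1, tropomodulin, which caps actin filaments in red cells and also in muscle, was at least 11.4-fold lower over both lines, a call that was lost without any 1 of the WT and TKO_29 arrays (limma adjusted p 0.0728 to 0.108 in TKO_26). The skeleton protein gene Add2 fell (at least 2.41-fold, above background on 3 of 4 TKO arrays), as did the water channel gene Aqp1 (2.32-fold). Both calls ended with the authors' matrix values (-1.06 for Add2, limma adjusted p = 0.0806 in TKO_29, and -0.92 for Aqp1) and with normexp (-0.89 and -0.91). Rhd, an Rh blood group gene, rose 2.23-fold. Among the genes left untested, ankyrin (Ank1), Epb42, Rhag and Kel were not well above background on both arrays of any line, WT included. Of 13 further red cell proteins and enzymes 8 were tested and none (0) passed in both lines by limma, with 2 higher and 0 lower at an unadjusted p under 0.05. Carbonic anhydrase Car2 differed by 0.59 and 0.61. Xk had the largest mean difference of the list, 0.76, was not well above background on 1 of the arrays of TKO_26 and 1 of WT, and lay at 0.34 without WT replicate 1 and 1.19 without WT replicate 2. The globin chaperone gene Ahsp had no matched probe.

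Decreases of the regulators were smaller than those of the globins. For Klf1 the dim WT level (mean -6.05, against 2.64 for Hbb-bh1) limits the decrease that could be measured. Gata1 was measured on all 6 arrays, at -5.06 and -4.83 in TKO_26 and -5.07 and -5.05 in TKO_29, against -3.73 and -3.84 in WT. The groups did not overlap, as for 23.9% of all tested probes in that direction, and the spread within a line was small. Gata1 fell 2.23-fold in TKO_26 (log2 difference -1.16, 95% confidence interval -1.52 to -0.79; limma adjusted p = 0.00814). In TKO_29 it fell 2.41-fold (-1.27, interval -1.63 to -0.91; adjusted p = 0.00474). With the authors' matrix values and with normexp the mean difference was -0.91 and -0.84, under 2-fold.

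Klf1 stood at -7.73 and -7.35 in TKO_26 and -7.22 and -7.30 in TKO_29, against -6.43 and -5.67 in WT. It was above background on 3 of 4 TKO arrays, and the WT arrays lay further apart than the arrays of either TKO line. It fell 2.32-fold in TKO_29 (log2 difference -1.21, 95% confidence interval -1.97 to -0.45; limma adjusted p = 0.0331) and at least 1.67-fold in TKO_26 (fitted difference -1.49, adjusted p = 0.0287). Leaving out WT replicate 1 kept the call and leaving out each other array ended it (limma adjusted p up to 0.127), and without WT replicate 2 the mean difference was -0.97. Klf1 lies on chromosome 8, where 769 measured probes had a median difference of 0.47 in TKO_26 and 0.46 in TKO_29, beside 0.02 and 0.00 over all chromosomes (0.0185 and -0.0013). With the authors' matrix values the Klf1 difference was -0.52 (limma adjusted p = 0.0641 in TKO_26 and 0.244 in TKO_29) and with normexp -0.43 (0.0706 and 0.174), and neither was called. The part of that chromosome's shift in the Klf1 value was not tested. The X chromosome, which holds Gata1 and Alas2, had medians of -0.04 and -0.07.

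Epor, the erythropoietin receptor gene, was measured on all 6 arrays, at -2.73 and -2.71 in TKO_26 and -2.49 and -2.36 in TKO_29, against -1.74 and -1.69 in WT. All TKO arrays were lower than the WT arrays. The difference was 2.00-fold in TKO_26 (95% confidence interval on the log2 scale -1.32 to -0.68; limma adjusted p = 0.00846), at the edge of the threshold, and it fell under 2-fold without WT replicate 2 or TKO_26 replicate 1. In TKO_29 it was 1.64-fold (-0.71, interval -1.03 to -0.39; adjusted p = 0.0141) and missed the 2-fold limit. Epo itself was not well above background on both arrays of any line. Of the other genes of erythropoietin and Kit signalling, 9 were tested and none (0) passed in both lines by limma (median -0.22), with 2 lower and 1 higher at an unadjusted p under 0.05. Kit differed by -0.43 and -0.59 and Jak2 by -0.57 and -0.90. The Kit ligand gene Kitl differed most, by -0.64 in TKO_26 and -2.22 in TKO_29.

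**Figure D3:**
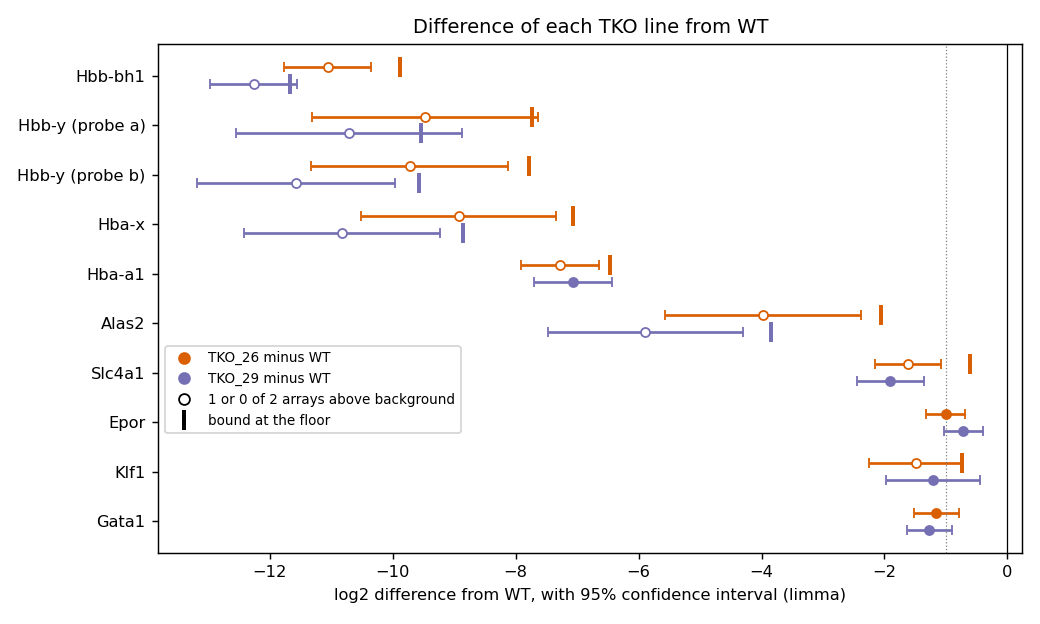
Log2 difference of TKO_26 and TKO_29 from WT for each probe, with the 95% confidence interval of the limma fit; the dotted line marks 2-fold. Open points had 1 or 0 of the line's 2 arrays well above background, and the upright tick gives their bound. Globins lie below -6 even at their bounds. Alas2 has no measured TKO level, with bounds of -2.05 in TKO_26 and -3.85 in TKO_29. Fitted differences of Slc4a1, Epor, Klf1 and Gata1 lie between -2 and -0.7, and the bound of Slc4a1 in TKO_26 is -0.60.

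Among transcription factors and cofactors that work with GATA1 and KLF1, 7 of 14 tested fell and none (0) rose (median -1.19, -1.14 with dim members at their bounds). Of all tested probes 5.93% were called lower. Lyl1, a blood helix-loop-helix factor, fell at least 87.8-fold over both lines and its relative Tal1, required for all blood, at least 35.0-fold. Lmo2, the bridging protein of the TAL1 and GATA1 complex, was measured on all arrays and fell 11.8-fold in TKO_26 and 15.1-fold in TKO_29 (limma adjusted p = 6.24e-04 and 5.33e-04). Nfe2, which binds the globin enhancers, fell at least 5.66-fold. Ldb1, the widely expressed partner of Lmo2, differed by -0.17 and -0.12, and Myb by 0.28 and -0.01. Tal1, Lmo2 and Lyl1 are also genes of endothelium and of blood progenitors.

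**Figure D4:**
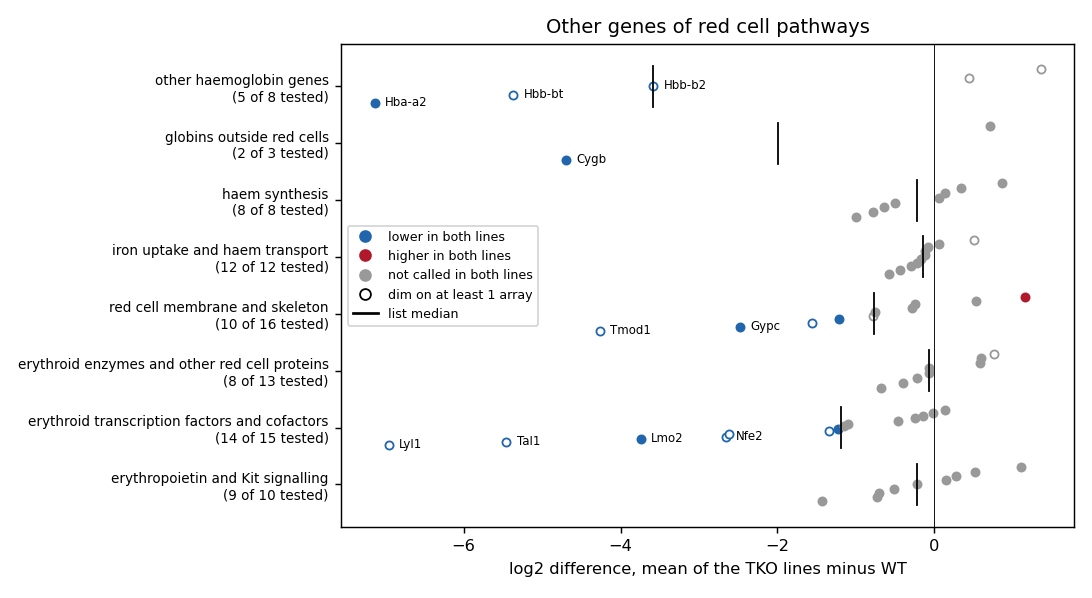
Log2 difference (mean of the TKO lines minus WT) of every tested gene of 8 red cell pathway lists. Blue points fell and red points rose in both lines, grey points were not called, open points were dim on at least 1 array, and the black line is the list median. Decreases are spread over the haemoglobin, membrane and transcription factor lists, while the 18 plotted genes of haem synthesis and iron handling lie within 1 unit of 0. Genes saturated on all arrays are left out.

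Markers of some other cell types moved with the globins and others did not. Over all tested probes 5.93% were called lower and 4.09% higher. Of 7 endothelial genes 4 fell and none (0) rose. Of the 7, 2 were dim on every TKO array, passed the filter through the WT arrays alone and therefore had to differ. The summed level of the 7 was 28.0 to 42.4 in TKO_26 and 15.1 to 18.2 in TKO_29, against 111 to 126 in WT, in percent of the 75th percentile. All 7 yolk sac endoderm genes fell, but 2 of them were dim on every TKO array and passed the filter through WT alone. The sums of the 7 were 15.6 to 16.2 in TKO_26 and 14.6 to 16.8 in TKO_29, against 321 to 338 in WT. Of the blood progenitor markers only Cd34 and Runx1 passed the filter, and Ptprc, Itga2b and Spi1 did not. Cd34, shared with endothelium, fell 46.9-fold, and Runx1 differed by -0.33 and -0.23. The sums of the progenitor list were 8.90 to 9.93 in TKO_26 and 8.87 to 9.05 in TKO_29, against 134 to 135 in WT, where Cd34 gave most of the sum. Of 8 megakaryocyte genes 4 were tested and 1 fell, the platelet factor gene Pf4 (at least 17.9-fold). Among the 4 tested, 1 was dim on every TKO array, passed the filter through the WT arrays alone and therefore had to differ. The sums were 18.8 to 19.9 in TKO_26 and 16.7 to 17.4 in TKO_29, against 25.05 to 41.4 in WT. Of the macrophage list 2 of 8 genes were tested, Csf1r, which fell 2.58-fold, and Cd14, which was not called. The median log2 difference of the 2 was -0.49. The sums of the macrophage list were 17.1 to 17.9 in TKO_26 and 14.0 to 14.1 in TKO_29, against 36.3 to 37.8 in WT. Of the stem cell markers 2 of 4 rose, Nanog and Sox2, and 0 fell. At an unadjusted limma p under 0.05 in both lines, 1 of the 4 was lower. Of the neuroectoderm markers 1 of 4 fell and 0 rose, with a median log2 difference of 0.39. At that unadjusted limit 2 of them were lower and 1 higher. The macrophage genes Lyz2, Adgre1 and C1qa were not well above background on any array. The part of these cell types in the red cell values was not tested.

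The 2 TKO lines were also set against each other. No red cell gene (0 of 9) was called between TKO_26 and TKO_29 by limma, as were 0.421% of all probes, and 3 had an unadjusted p under 0.05. Without TKO_26 replicate 2 the count was 2. The 3 genes, Hbb-bh1, Hba-x and Alas2, were not well above background in either line, so their fitted differences of 1.20, 1.89 and 1.91 compare signals without a measured level. For genes measured on all arrays the interval is informative: TKO_26 minus TKO_29 was 0.12 for Gata1 (95% confidence interval -0.25 to 0.48) and -0.29 for Epor (-0.61 to 0.03). Counting a line as 1 replicate (WT n = 1, TKO n = 2), where only the TKO lines give a spread and WT is assumed to vary like them, limma called 4 of the 9 genes lower, the globins Hbb-bh1, Hbb-y, Hba-x and Hba-a1, with adjusted p between 0.0451 and 0.0488. Of these 4 only Hba-a1 was above background in TKO. Without TKO_26 replicate 2 or TKO_29 replicate 2 it called 0. Over all probes this test called 0.637% lower and 0.746% in either direction, and 8 of the 9 genes had an unadjusted p under 0.05.

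By the profile over the 6 arrays, each less its WT mean, the other embryonic globins lay nearest to Hbb-bh1, with root mean square distances on the log2 scale of 0.97 (Hbb-y probe b), 1.35 (Hbb-y probe a) and 1.54 (Hba-x). Outside the 9 genes the nearest were Icam2, Prl7b1, Tie1, Myl7 and Ctsq, at 2.24, 3.07, 3.12, 3.17 and 3.18. None of these 5 is in the red cell lists used: Icam2 and Tie1 are known from endothelium, Myl7 from atrial muscle, and Prl7b1 and Ctsq from placenta. Icam2, the nearest outside the 9 genes, had levels of -8.38 and -8.12 in TKO_26 and -8.19 and -8.50 in TKO_29, against 0.62 and 0.78 in WT. The measure is dominated by the size of the decrease, and dim TKO values have no order.

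The upstream sequences of the genes are shown because most of them were lower in TKO, and their letters were searched for the words that GATA1 and KLF1 are known to read. Windows of 250 bases ending just before the annotated start were taken from RefSeq promoters of build GRCm38.p6, which held 7 of the 9 genes. Hbb-bh1 and Slc4a1 had no entry. The windows printed are chr7:103853208-103853457 (minus strand) for Hbb-y, chr11:32276350-32276599 (plus strand) for Hba-x, chr11:32283422-32283671 (plus strand) for Hba-a1, chrX:150547167-150547416 (plus strand) for Alas2, chr8:84901732-84901981 (plus strand) for Klf1 and chrX:7967911-7968160 (minus strand) for Gata1. Each reads 5′ to 3′ along its gene, and capitals mark a CACCC word or a GATA word on either strand, a GATA word being GATA with A or T before it and A or G after it. Words of the same kind may overlap.
Hbb-y: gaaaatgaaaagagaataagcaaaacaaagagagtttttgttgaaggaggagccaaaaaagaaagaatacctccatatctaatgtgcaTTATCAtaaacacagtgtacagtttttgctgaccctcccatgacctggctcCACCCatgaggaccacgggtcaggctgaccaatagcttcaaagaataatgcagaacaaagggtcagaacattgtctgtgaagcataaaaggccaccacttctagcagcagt
Hba-x: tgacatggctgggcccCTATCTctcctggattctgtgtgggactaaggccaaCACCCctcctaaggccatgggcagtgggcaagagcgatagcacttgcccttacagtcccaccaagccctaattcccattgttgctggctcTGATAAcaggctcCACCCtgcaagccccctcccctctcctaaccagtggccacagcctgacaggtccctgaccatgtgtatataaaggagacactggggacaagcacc
Hba-a1: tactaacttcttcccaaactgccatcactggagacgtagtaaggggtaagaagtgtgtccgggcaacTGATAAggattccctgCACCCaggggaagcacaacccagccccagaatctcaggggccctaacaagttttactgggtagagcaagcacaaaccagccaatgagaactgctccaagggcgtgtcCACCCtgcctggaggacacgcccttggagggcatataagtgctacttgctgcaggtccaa
Alas2: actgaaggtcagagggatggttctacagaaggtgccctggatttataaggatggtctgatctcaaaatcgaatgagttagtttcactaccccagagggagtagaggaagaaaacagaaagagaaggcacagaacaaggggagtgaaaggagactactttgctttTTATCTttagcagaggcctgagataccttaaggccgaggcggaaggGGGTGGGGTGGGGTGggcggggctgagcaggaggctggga
Klf1: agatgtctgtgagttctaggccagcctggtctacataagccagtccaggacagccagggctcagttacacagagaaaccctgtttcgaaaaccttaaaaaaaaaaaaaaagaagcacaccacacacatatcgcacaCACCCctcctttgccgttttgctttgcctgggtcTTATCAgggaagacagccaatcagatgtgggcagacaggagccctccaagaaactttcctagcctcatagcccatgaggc
Gata1: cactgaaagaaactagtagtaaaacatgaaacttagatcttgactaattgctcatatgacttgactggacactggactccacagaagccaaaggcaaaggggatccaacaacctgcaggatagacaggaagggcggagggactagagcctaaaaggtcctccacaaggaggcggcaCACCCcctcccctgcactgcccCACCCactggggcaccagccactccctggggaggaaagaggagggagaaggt

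All 4 printed genes with large decreases held at least 1 GATA word and at least 1 CACCC word: 1 and 1 in Hbb-y, 2 and 2 in Hba-x, 1 and 2 in Hba-a1, and 1 and 3 in Alas2. Klf1 held 1 and 1, and Epor, not printed, 1 and 2. Gata1 held 0 and 2. Over 32851 promoter windows of the same length, 26.5% held a GATA word, 52.0% a CACCC word and 11.8% both. The CG dinucleotides, the sites of DNA methylation that TET enzymes act on, numbered 1 in Hbb-y, 1 in Hba-x, 4 in Hba-a1, 4 in Alas2, 6 in Epor, 3 in Klf1 and 2 in Gata1. The median over all windows was 6 (quartiles 2 and 16). Matches of letters describe the windows and show neither binding nor methylation, which were not measured here.

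**Figure D5:**
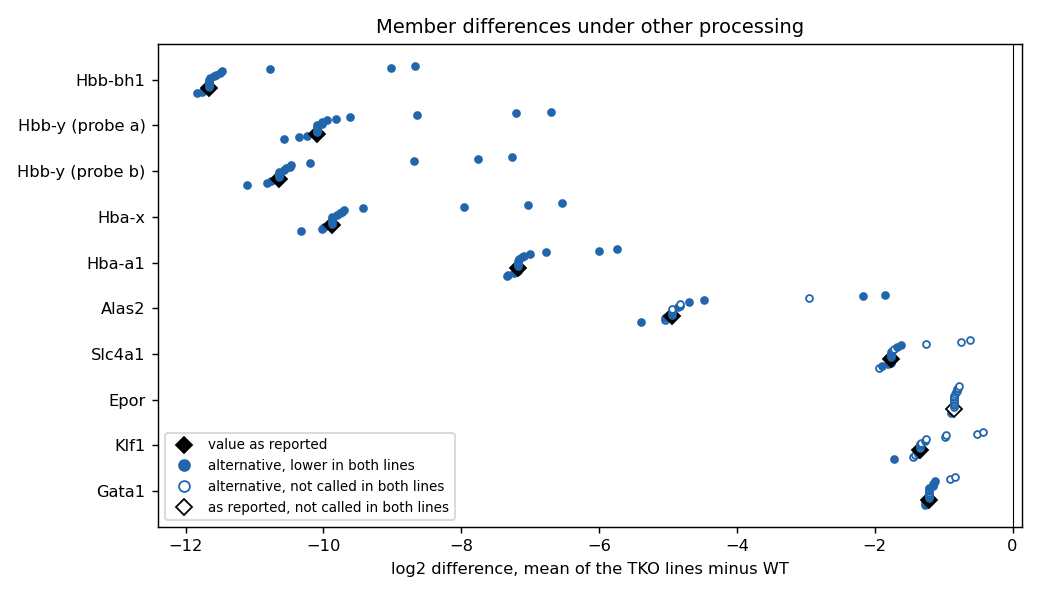
Log2 difference (mean of the TKO lines minus WT) of each probe as reported (diamonds) and under each alternative processing (circles), filled where the gene was lower in both lines. The globin calls hold wherever the probe was tested, and Klf1, Slc4a1, Gata1 and Alas2 lose their call under several alternatives.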

How the data were processed

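Total RNA was given a Cy3 label and run on 1-colour Agilent arrays, per the labels' protocols. Per the file headers, Agilent Feature Extraction 10.5.1.1 gave each spot's processed intensity, background-subtracted and detrended within the array but not normalised between arrays, with flags. The authors' deposited matrix holds log2 values, and how they were made was not given in the sources used here. Its columns tracked the log2 median signals of their arrays (r 0.995 to 1.00); for TKO_29 replicate 1 another array fitted equally well (0.9962 and 0.9963). Scale and direction were read from this match, and column medians were 6.86 to 6.89.

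Control spots and outlier spots were left out (263 of 55681 probes were lost), saturated spots were kept, and spots of a probe were averaged. The log2 signals were scaled to the 75th percentile over 19178 probes well above background on all arrays. Tests took in probes well above background on both arrays of some line. Accessions were matched to RefSeq genes of GRCm38.p6 (49.4% of probes), an assembly other than that of the array design, so it served for names and gene order. The tested probe with the highest mean level over all arrays stood for its gene (probe a of Hbb-y). Fits used limma 3.58.1 in R 4.3.3 on 6 arrays in 3 groups, or on line averages, and were tested on simulated data. Python 3.11.15, pandas 2.3.3, numpy 2.4.6 and matplotlib 3.10.9 made tables and figures. The alternatives were other normalisations, filters, the authors' matrix, left-out arrays, a replicate block, a variance trend and left-out chromosomes. Members and gene lists were chosen with earlier results of these data known. Named genes were all members, up to 4 called genes of each list by size, or the largest difference where none was called, and the 5 most alike in profile. Other genes, such as neighbours, were named after their values were seen. The number of arrays limits the precision. Some genes of the lists are counted but not reported here by name.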

Additional observations from a re-analysis of the deposited data

How the results depend on the processing

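The 8 genes lower in both lines became 5 with the authors' matrix values, 5 with normexp (offset 50) and quantile normalisation and 5 with dim signals at their floor (chosen after seeing the data), 4 without a filter on dim probes, 1 of 2 tested with signal demanded on all 6 arrays, and 5 of 6 tested without chromosomes 8, X and Y. Leaving out 1 array gave 6 to 7. The 9 called in TKO_26 became 5, 5 and 4 with the matrix, normexp and no filter, and 2 of the 2 still tested with signal on all arrays (6 to 8 with 1 array left out), and the 8 in TKO_29 became 5 and 5 with the matrix and normexp, 1 of 2 tested with signal on all arrays and 5 of 6 tested without those chromosomes (7 to 8). Between the lines the count was 0 to 2 with 1 array left out, the 2 appearing without TKO_26 replicate 2. The 4 called on line averages became 0 with normexp, with quantile normalisation, without the filter, with signal on all arrays, with 1 probe per gene and with dim signals at their floor, and 0 to 5 with 1 array left out, the 0 without TKO_26 replicate 2 or TKO_29 replicate 2. In these 6 settings 8, 7, 5, 1, 8 and 6 genes had an unadjusted limma p under 0.05, and 8 had one without either of these arrays. No member reversed its direction. The Hbb-bh1 difference of -11.66 was -9.03 with the matrix and -8.67 with normexp, Hba-a1 -6.00 and -5.74, and Alas2 -2.17 and -1.85. The cause was not tested.

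What a replicate number shared between lines stands for was not given in the sources used here. Deviations of same-numbered arrays correlated at 0.175, -0.132 and -0.214. With the replicate number as a block, 8 member genes were again lower in both lines and the count over all probes was 1561 in place of 1676. Signal over background limits every value near the floor.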
